A study of Drosophila melanogaster with 12 samples.

Results

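The genes followed here act in the phototransduction cascade of the fly eye and were measured in head RNA of *Drosophila melanogaster*: Galphaq, trpl, inaD, inaC, Arr1 and rdgC. They were taken by gene symbol from the annotation of a spotted cDNA array, and all 6 were found among 6793 distinct symbols named by a single-symbol probe. In the fly photoreceptor, light-activated rhodopsin switches on a Gq protein, which turns on a phospholipase C, and the products of that enzyme lead to opening of the TRP and TRPL cation channels. Calcium that enters through the channels then helps to end the response, through a kinase on the INAD scaffold, through arrestins that cap active rhodopsin and through a phosphatase that resets it. The cascade is a standard model for phospholipase C signalling in nerve cells.

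The flies were unmated Oregon-R wild type males, and the study fed them a convulsant, pentylenetetrazole (PTZ), together with an antiepileptic drug, levetiracetam (LEV). PTZ was given at 8 mg/ml and LEV at 5 mg/ml, and controls of every time ate normal food. The 12 h and 2 d heads came from flies still on the mixture, while the 7 d flies had left it after 4 days and then received only PTZ. Vials held 30 flies and the RNA of each array came from pooled heads, so the 4 arrays of a time are 4 pairs of pools, called biological replicates by the submitters. Their age is uncertain, since the age label (3 to 4 days) and the time in vials given in the growth protocol (10 to 11 days) differ. Each array carried a treated pool in one dye and its control pool in the other. In replicates 1 and 2 of each time Cy5 marked the treated pool, and in replicates 3 and 4 the dyes were swapped.

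Every value is a log2 ratio of the dye channels. The sources leave its direction unstated, so that it may be either Cy5 over Cy3 or treated over control throughout. Values below are treated over control under the first reading, which reverses the sign of replicates 3 and 4, and each array is centred on its own median. Under the second reading the sign of replicates 3 and 4 flips back, while replicates 1 and 2 read the same under both. In RNA of whole heads, fewer photoreceptor cells and less of an RNA per cell cannot be told apart. The arrays held values for 5.65% to 51.4% of the 13824 probes (1394 to 14042 of 27648 spots), and their medians before centring ran from -0.69 to 0.85. Of the marker genes listed for other cells of the head, 2 of 3 neuron genes with a probe, 3 of 5 glia genes, 4 of 8 fat body genes and 2 of 4 muscle genes had a value on at least 1 array, and elav and repo were not analysed here. Over these lists at 12 h, array medians of the measured genes ran from 0.05 to 0.63, from -0.70 to 0.26, from -0.54 to 0.17 and from -0.22 to 0.77. For glia and for muscle each of these was the value of 1 gene. Neurons had 0 to 2 measured genes per array, on replicates 2 and 3 only, and fat body had 2 to 4. The part of these genes in the values below was not tested.

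The genes were measured unevenly over time. Of 72 possible values, 41 were present, and in all 41 both duplicate spots of the probe had a value. All 6 genes had values on all 4 arrays at 12 h, but they come from a list tested at that time, so this follows from the choice. At 2 d only rdgC and inaC were measured, on 3 of 4 arrays each, and replicate 4 held none of the 6. At 7 d rdgC had all 4 arrays, inaC and inaD had 2, and trpl, Arr1 and Galphaq had 1. At that time replicate 4, the array with 14042 spots, held 5 of the 6 genes, replicate 2 held 4, and replicates 1 and 3 held rdgC alone. With 11 of 12 arrays, rdgC was among the 28 of 7558 single-symbol probes present on 11 or more. A spot without a value had failed the authors' filters, and this says nothing of the direction of a change.

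**Figure D1:**
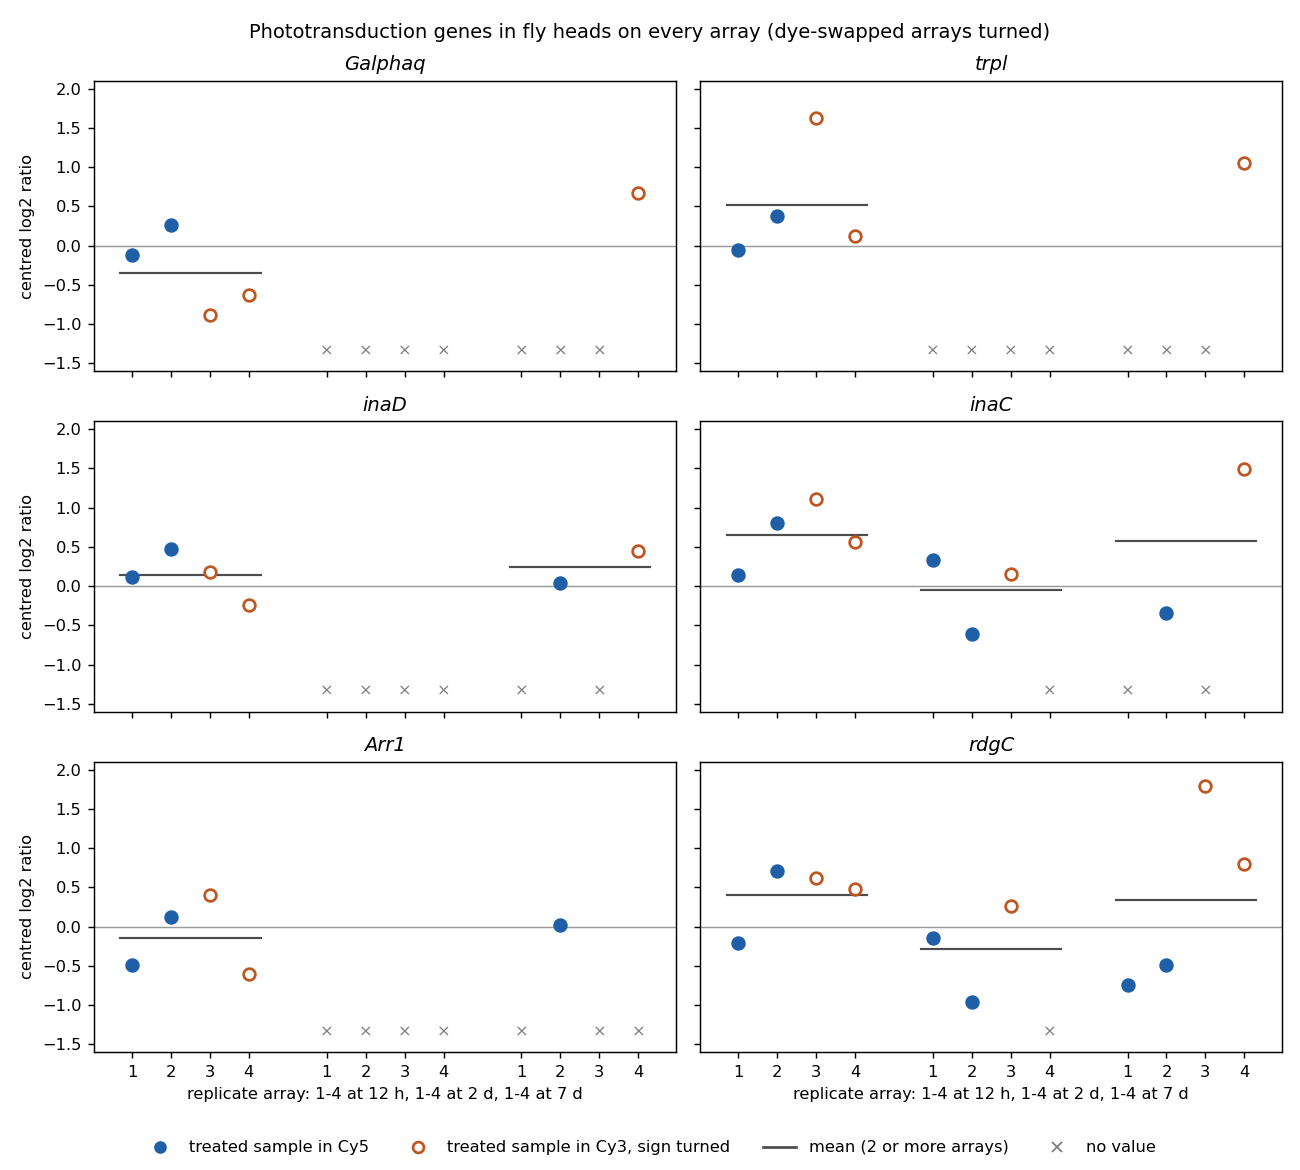
Centred log2 ratio (vertical axis) of each gene on each replicate array at 12 h, 2 d and 7 d (horizontal axis). Filled points have the treated sample in Cy5, open points have it in Cy3 with the sign turned, bars are means over 2 or more arrays and crosses mark arrays without a value. At 7 d the filled points of rdgC lie at -0.74 and -0.50 and its open points at 1.79 and 0.80.

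Galphaq encodes the alpha subunit of the Gq protein that carries the signal from rhodopsin to phospholipase C. At 12 h it stood at -0.12 and 0.26 on replicates 1 and 2, and at -0.88 and -0.63 on the dye-swapped replicates 3 and 4. Thus 3 of 4 arrays were below 0, and the pair of Cy3-treated arrays lay below both Cy5-treated ones. How many of all probes do the same was not computed. The mean was -0.34 ± 0.51 (SD, n = 4 arrays), with a 95% interval from limma of -1.05 to 0.36. With signs as deposited it was 0.41 ± 0.44, and on the Cy5-treated arrays alone 0.07 (n = 2). Without centring the turned mean was 0.16 ± 0.63, below the median of 0.47 over all probes tested. So no direction held for this gene across the readings. A second Galphaq probe had no value on any array, and the only later value was 0.67, on 7 d replicate 4.

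trpl encodes the TRP-like cation channel, the partner of TRP in the light-gated current. Its 12 h values were -0.06, 0.37, 1.63 and 0.13 for replicates 1 to 4, and replicate 3 stood well above the other three. The duplicate spots of that array differed by 1.24 log2 units, the largest gap among the 41 values. The mean was 0.52 ± 0.76 (SD, n = 4), with an interval of -0.38 to 1.41, and without replicate 3 it was 0.15. The mean turned to -0.36 ± 0.88 with signs as deposited. On the Cy5-treated arrays it was 0.16, and the only value at 7 d, on replicate 4, was 1.05. The gene for the main channel, trp, had a single value, 2.20 on 12 h replicate 4. Other listed phototransduction genes with 1 value at 12 h lay on both sides of 0. On replicate 3 santa-maria had 2.37, Pkc53E -0.53 and Gprk2 -1.86, and on replicate 4 Pld had 1.05.

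inaD encodes the PDZ scaffold that holds the TRP channel, phospholipase C and the eye-specific protein kinase C in one complex. It had 0.12, 0.48, 0.19 and -0.24 at 12 h, the narrowest spread of the 6 genes, and 3 of 4 arrays were above 0. The mean was 0.14 ± 0.29 (SD, n = 4), with an interval of -0.44 to 0.71. Without centring it was 0.64, beside a median of 0.47 over all probes tested. The centred mean without replicate 2 or replicate 4 was 0.02 or 0.26. The mean differed little between the readings of the signs, at 0.16 ± 0.28 as deposited, because replicates 3 and 4 lay on opposite sides of 0. At 7 d the gene had 0.04 on replicate 2 and 0.44 on replicate 4.

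inaC encodes the eye-specific protein kinase C, a calcium-dependent regulator bound to INAD. At 12 h its values were 0.14, 0.81, 1.11 and 0.57, all above 0. Its mean of 0.66 ± 0.41 (SD, n = 4) had an interval of 0.02 to 1.30 and an unadjusted p of 0.0459 in limma, and it lay above 92.9% of the 1283 probes tested, against 29.9% with signs as deposited. After adjustment over those probes p was 0.867, so the difference did not pass. Of the 981 probes with all 4 arrays at 12 h, 7.34% were above 0 on every array. The same arrays gave -0.18 ± 0.84 with signs as deposited, with 2 above and 2 below 0. On the Cy5-treated arrays alone the mean was 0.48.

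Fewer arrays held inaC later. At 2 d it stood at 0.33, -0.62 and 0.15 on replicates 1 to 3, a mean of -0.05 ± 0.50 (SD, n = 3) with an adjusted p of 0.995 in limma over 1001 probes, and -0.15 ± 0.47 as deposited. At 7 d it had -0.34 on replicate 2 and 1.49 on the dye-swapped replicate 4, where the deposited sign gives -1.49. Its duplicate spots differed by a median of 0.11 over 9 arrays, which is less than the SD between the arrays of either tested time.

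Arr1 encodes one of the arrestins that bind activated rhodopsin. Replicates 1 to 4 gave -0.49, 0.12, 0.40 and -0.60 at 12 h, with 2 arrays on each side of 0. The mean was -0.14 ± 0.48 (SD, n = 4), with an interval of -0.83 to 0.54, and -0.04 ± 0.51 with signs as deposited. Without centring it was 0.36 ± 0.80, on the other side of 0 but below the median of 0.47 over all probes tested. Its duplicate spots differed by 0.35, 0.94, 1.23 and 0.64 on these arrays, and on 4 of its 5 arrays they differed by more than the median pair of the array. At 7 d the gene had 0.015 on replicate 2. Arr2, which encodes the major arrestin of the eye, had no value at 12 h and stood at 0.74 and 0.91 on 7 d replicates 3 and 4.

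rdgC encodes the calcium-regulated phosphatase that removes phosphate from rhodopsin. At 12 h it stood at -0.21, 0.71, 0.62 and 0.48, so replicate 1 alone was below 0. The mean was 0.40 ± 0.42 (SD, n = 4), with an interval of -0.24 to 1.05, and it turned to -0.15 ± 0.60 with signs as deposited. At 2 d replicates 1 to 3 gave -0.15, -0.96 and 0.26, a mean of -0.28 ± 0.62 (SD, n = 3). Both Cy5-treated arrays were below 0 and the Cy3-treated one above. Without replicate 2 the mean was 0.06.

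The 7 d values of rdgC split by dye. They were -0.74 and -0.50 on the Cy5-treated replicates 1 and 2, and 1.79 and 0.80 on the Cy3-treated replicates 3 and 4. So the 2 orientations did not overlap, but the share of all probes with orientations apart was not computed. The muscle gene Mlc2, a myosin light chain gene, had -0.04, -0.36, 1.25 and 0.51 on these arrays, with its dye orientations apart in the same order, and a mean of -0.54 ± 0.51 as deposited. Array medians of the listed genes at 7 d ran from -0.36 to 1.25 for muscle, but on replicates 1 to 3 this is Mlc2 alone. On replicate 4 the other measured muscle gene, Act88F, had -0.05. For neurons they ran from -0.06 to 0.88, with 1 measured gene per array. For fat body they ran from -0.67 to 0.79 with 0 to 3 genes per array, and glia genes gave -0.13 on replicate 4, their only array. The part of the listed genes in the rdgC values was not tested. The turned rdgC mean of 0.34 ± 1.18 (SD, n = 4) averages opposite values, and its adjusted p in limma was 0.927 over 865 probes. As deposited, before centring, the 4 arrays gave -1.42, -1.13, -1.05 and -1.35, a mean of -1.24 ± 0.18. That SD is below every other SD given here for the 6 genes over 3 or more arrays. Centred and as deposited, the values were all below 0 at -0.96 ± 0.57, with an interval of -1.77 to -0.15 and an unadjusted p of 0.0276 in limma, where 7.98% of all probes had one under 0.05. The adjusted p was 0.586 centred and 0.531 uncentred, so neither passed. Of the 603 probes with 4 arrays at 7 d, 10.8% were below 0 on every array in this centred orientation and 18.2% before centring. Leaving out 1 array gave centred means from -1.11 to -0.68. Read as treated over control, these values put rdgC lower in treated heads on all 4 arrays. Read as Cy5 over Cy3, they put it lower on replicates 1 and 2 and higher on replicates 3 and 4. The readings cannot be told apart from the sources.

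**Figure D2:**
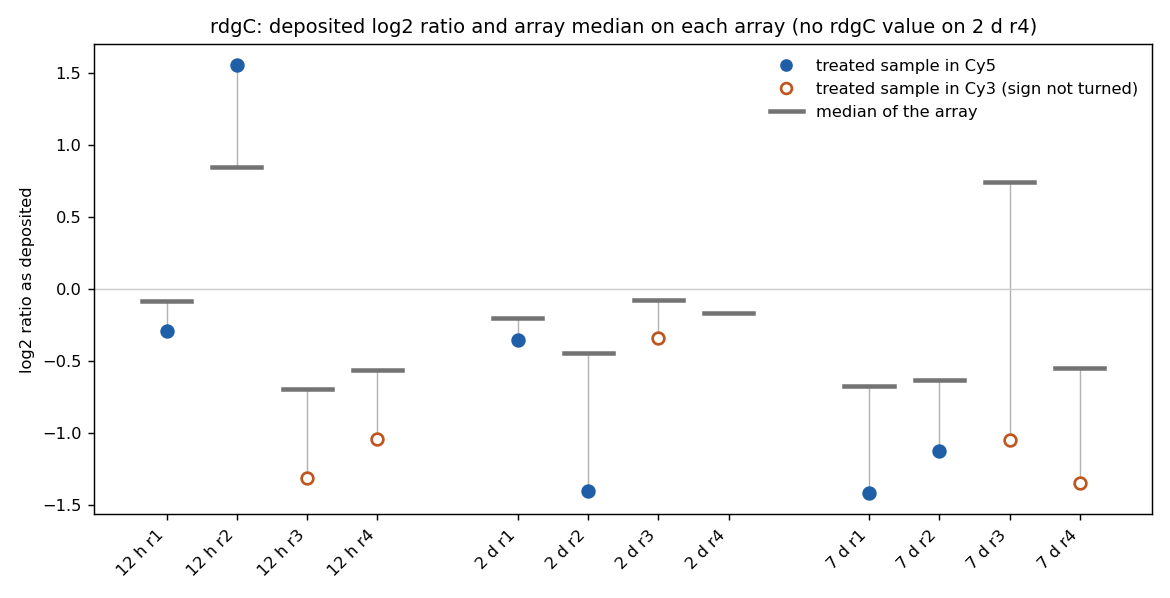
Deposited log2 ratio of rdgC (points) and the median of all probes of the array (grey bars) for each array, before turning or centring. At 7 d the 4 points lie between -1.42 and -1.05 in both dye orientations, while the array medians run from -0.67 to 0.74.

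Replicates 1 and 2 allow a comparison of the times that keeps its sign under either reading. On these arrays rdgC averaged 0.25 at 12 h, -0.56 at 2 d and -0.62 at 7 d (n = 2 each). In a limma fit of these 6 arrays, 2 d minus 12 h was -0.81 ± 0.73 (SE) and 7 d minus 12 h was -0.87 ± 0.73, with adjusted p of 0.901 and 0.968. The 12 h and 2 d arrays overlapped, since 12 h replicate 1 at -0.21 lay below 2 d replicate 1 at -0.15. Both 7 d arrays lay below both 12 h arrays, but the share of all probes with these times apart was not computed. With all 12 arrays the same differences were -0.68 ± 0.67 and -0.06 ± 0.62 (adjusted p = 0.997 and 0.987 in limma, with 0% of the 658 probes past the threshold). Read as deposited, they were -0.31 ± 0.52 and -0.81 ± 0.48 (adjusted p = 0.962 and 0.901 in limma). From 2 d to 7 d the difference was 0.62 ± 0.67 turned and -0.50 ± 0.52 as deposited (adjusted p = 0.984 and 0.966 in limma). With at least 2 arrays of every time, inaC could be fitted as well, with 2 d minus 12 h at -0.70 ± 0.55 turned and 0.03 ± 0.57 as deposited (adjusted p = 0.999 and 0.991 in limma). None of these differences passed the test.

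Taken as a group at 12 h, 4 of the 6 genes had a mean above 0 (trpl, inaD, inaC and rdgC) and 2 below (Galphaq and Arr1), against 45.1% above 0 over the 1283 probes tested. The median of the 6 means was 0.27, beside -0.05 over all probes. With signs as deposited 2 of 6 were above 0, against 54.5% of all probes, and the medians were -0.10 and 0.05. On single arrays the median of the 6 genes was -0.09, 0.42, 0.51 and -0.06 for replicates 1 to 4, so replicates 2 and 3 were high and the others near 0. As deposited, replicate 3 was low instead, at -0.51. The mean of the array medians was 0.20 ± 0.31 (SD, n = 4), less than the spread between arrays, and -0.03 ± 0.39 as deposited. It was 0.09 without replicate 3 and 0.12 without replicate 2. In limma, 0 of the 6 genes passed at 12 h, where 0% of all probes did and 58 of 1283 (4.52%) had an unadjusted p under 0.05, or 103 (8.03%) with signs as deposited. At 2 d 0 of 2 and at 7 d 0 of 1 tested genes passed, again with 0% of all probes, and 16 (1.6%) and 34 (3.93%) probes had an unadjusted p under 0.05. Read as deposited, these were 133 (13.3%) and 69 (7.98%).

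**Figure D3:**
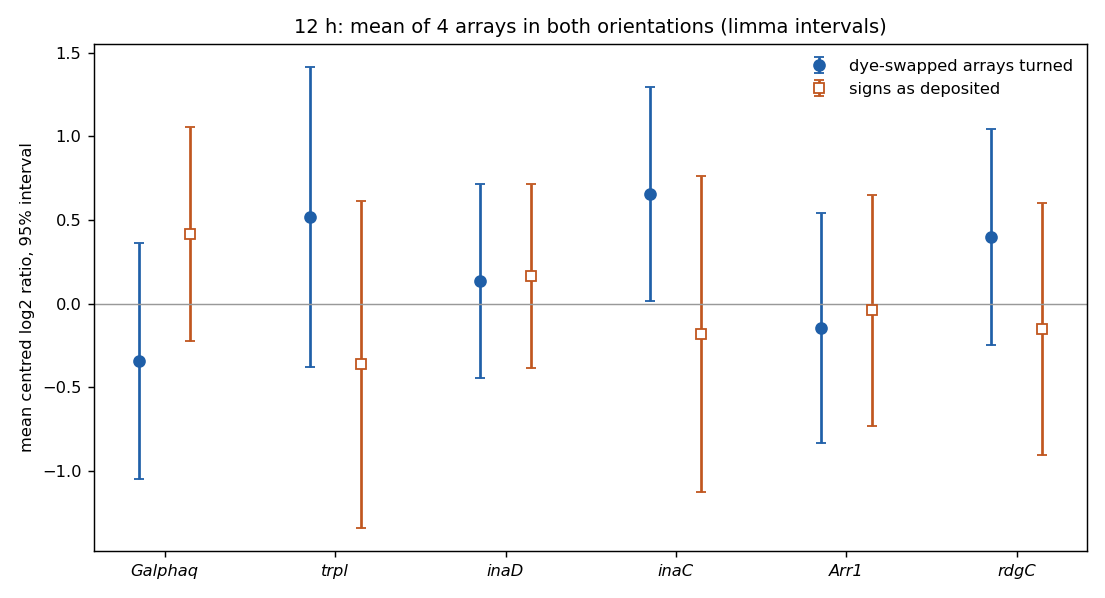
Mean centred log2 ratio over 4 arrays at 12 h (points) with 95% limma intervals (bars) for each gene, with dye-swapped arrays turned (filled circles) and with signs as deposited (open squares). Apart from inaC in the turned orientation, at 0.66 with an interval of 0.02 to 1.30, each interval includes 0.

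The rest of the cascade was sampled thinly. Of 37 further phototransduction genes listed, 16 had a single-symbol probe, 15 had a value on some array, and 4 had 3 or more arrays at a time, all 4 of them at 12 h. Those without such a probe, among them the rhodopsin gene ninaE and the phospholipase gene norpA, were not analysed here. None of the 4 passed in limma, in either direction at any time, and at 12 h 2 of the 4 had a mean above 0.

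Of these 4 genes, rtp, also called retinophilin, encodes a photoreceptor protein that stabilises the NINAC myosin. Its 12 h values were 0.47, 0.74, 1.05 and 0.17, with a mean of 0.61 ± 0.38 and an adjusted p of 0.867 in limma (n = 4), and as deposited it was -0.0018 ± 0.80. All 4 arrays were above 0, as for inaC. At 2 d rtp had 0.11, -0.62, -0.01 and -0.05, and at 7 d -0.01, -0.18 and 0.98 on replicates 1, 2 and 4. Nckx30C encodes an ion exchanger of photoreceptors that moves calcium, and it had -0.45, -0.67, -0.87 and -0.67 at 12 h, below 0 on every array in the turned orientation, as were 9.79% of the 981 probes. It did not pass either (unadjusted p = 0.0227 and adjusted p = 0.867 in limma), and as deposited its mean was 0.11. At 7 d Nckx30C had 0.35 and 0.58 on replicates 3 and 4. Xport-A, whose product escorts TRP and rhodopsin to the light-sensing membrane, averaged 0.15 ± 0.19, and Cnx99A, a calnexin needed for rhodopsin maturation, averaged -0.18 ± 0.22 (n = 4 each).

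Among 14 eye structure and pigment genes listed, 7 had a probe, and Hdc alone had 3 or more arrays at a time. Hdc makes histamine, the transmitter of photoreceptors, and its 12 h values were 0.18, -0.13, 0.26 and -0.34, a mean of -0.01 ± 0.27 (n = 4). chp, a photoreceptor surface protein gene, had -1.31 and 0.83 on 12 h replicates 3 and 4. On the same arrays Pdh had 0.61 and 0.61, and ry had 2.09 on replicate 4. The listed genes measured at this time lay on both sides of 0.

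**Figure D4:**
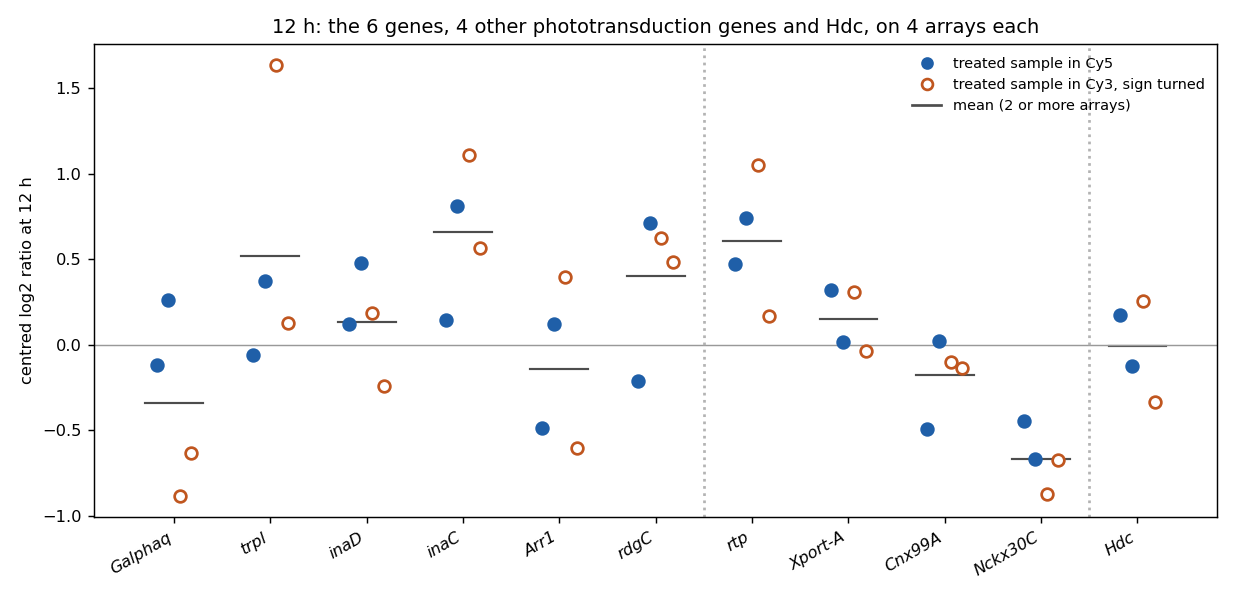
Centred log2 ratios at 12 h on 4 arrays for the 6 genes (left), 4 other phototransduction genes (middle) and Hdc (right), with bars at the means and filled and open points as treated in Cy5 and in Cy3 with the sign turned. The means run from -0.67 for Nckx30C to 0.66 for inaC, and inaC and rtp are above 0 on all 4 arrays.

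Likeness to other genes could be measured for inaC and rdgC, the only ones with 8 or more arrays. Among 111 single-symbol genes sharing at least 8 arrays with inaC, the highest Pearson correlations of centred and turned ratios were 0.95 for kek4 (8 arrays) and 0.93 for rtp (9 arrays). For rdgC, among 126 genes, they were 0.93 for kek4 and 0.90 for Droj2, a DnaJ chaperone gene (8 arrays each). inaC and rdgC correlated with one another at 0.93 over 9 arrays turned and at 0.85 as deposited. With signs as deposited, rtp and RpL15 led for inaC (0.95 and 0.94), and kek4 and Prp18 for rdgC (0.93 and 0.89). These are descriptions of the arrays, which share their centring, dye orientation and time, and the genes named are the highest of 111 or 126 by choice.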

How the data were processed

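The members and gene lists were chosen with earlier results of these data known. Values are log2 ratios of the 2 channels, as deposited. The series design text states that spots were quantified with GenePix Pro 6.0, normalized by ratio in Acuity 4.0, and filtered on saturation, flags, the R2 between channel pixels (0.6 or more) and signal over noise (3 or more), and that SAM 3.0 was the test. Log base 2 was inferred, since the highest value, 16.61 in 8 spots, is the log2 of a round power of 10. Scanner intensities were not used here, so depth and signal over background per spot are unknown, and the number of arrays limits precision. Where the source names of 2 arrays give no treated channel, the treatment protocols were used. The design text names LEV as the last food at one point; treatment protocols name PTZ, which was followed.

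Adjacent spots of a probe were averaged (13824 probes, 7558 with 1 symbol, 51 with several, 6215 with none). Symbols were checked through the entrez identifier in RefSeq's Release 6 table, which held 7447 of the 7558 and changed 0. Dye-swapped arrays were turned and every array was centred on its median. The mean of each probe with values on 3 or more arrays was tested against 0 (limma 3.58.1, R 4.3.3; intercept only, two-sided, Benjamini-Hochberg over all probes of the time, threshold 0.05). Times were compared as contrasts in 1 fit over the 658 probes with at least 3 arrays of every time. Intervals are 95% intervals of the fit of each single time, without adjustment. The single-time fit was tested on simulated 12 h data, with shifts larger than any mean of the 6 genes and no dye effect. That test does not show what the fit could miss here. p-values measure the spread between the pools of a time.

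Named genes were the 6 members, listed phototransduction or eye genes with 3 or more arrays of a time, and the 2 genes most like each member with 8 or more arrays. The same rule for the median of the 6 could not be applied, because only 6 arrays held 3 or more of them. Other genes were named outside the rule, after their values were seen. These were trp, Pld, santa-maria, Pkc53E, Gprk2, Arr2, laza, ninaG, chp, Pdh, ry, Mlc2, Act88F and the listed genes called not analysed. Alternatives were the orientation, the centring, array scale, the filters, the probes fitted, a dye term, the replicate block and leaving out each array.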

Additional observations from a re-analysis of the deposited data

Results flagged for a closer look

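At 7 d, 2 features of the arrays stood far from the other arrays of that time, among 13 groups of 4 values examined, where chance flags about 1 in 20. Replicate 4 held 14042 spots, against 1394 to 2730 on the other three, and it gave the only 7 d value of trpl (1.05) and of Galphaq (0.67). Replicate 3 had a deposited median of 0.74, against -0.67 to -0.55 on the others, and centring moved rdgC on that array from 1.05 to 1.79 in the turned orientation. Without replicate 3, the turned 7 d mean of rdgC was -0.15, and without replicate 4 it was 0.18.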

How the results depend on the processing

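Across 93 alternative fits of single genes, 0 passed the threshold (smallest adjusted p 0.398 in limma), so no call was gained or lost, but directions depended on the reading of the signs and on centring. With signs as deposited, means at 12 h were -0.18 for inaC, -0.36 for trpl, 0.41 for Galphaq and -0.15 for rdgC, rdgC at 7 d was -0.96, and the median of the measured genes at 7 d was -0.88. Without centring, Arr1 was 0.36 and Galphaq 0.16 at 12 h, and rdgC was -0.037 at 7 d. The median of the 6 genes at 12 h was 0.70, and 10 probes passed at 7 d. All probes shifted as well. Their median was 0.47 at 12 h, where 84.4% of 1283 had a mean above 0, and -0.23 at 7 d. Without centring and with signs as deposited, an alternative chosen after seeing the data, means at 12 h were -0.31 for inaC, -0.48 for trpl, 0.29 for Galphaq and -0.27 for rdgC, rdgC at 7 d was -1.24, and 1 probe passed at 12 h. On the arrays treated in Cy5, Galphaq was 0.072 at 12 h and rdgC -0.62 at 7 d. For inaC at 2 d the mean was 0.14 with arrays scaled to a common spread and 0.0044 with a dye term. Leaving out 1 array gave -0.32 to 0.01 for Arr1 at 12 h (0.0094 without replicate 4), -0.23 to 0.24 for inaC and -0.56 to 0.057 for rdgC at 2 d (above 0 without replicate 2), and -0.15 to 0.70 for rdgC at 7 d (below 0 without replicate 3). The mean of inaD at 12 h was 0.64 without centring and 0.02 to 0.26 with 1 array left out. The cause of these shifts was not tested. With a replicate block over replicates 1 and 2 of each time, 0 of 502 probes passed in any contrast, and rdgC differed by -0.81, -0.87 and -0.06 (adjusted p = 0.876, 0.950 and 0.981 in limma). The differences equal those without the block by design, since rdgC had both replicates at every time. Replicate 1 minus replicate 2 correlated across probes at 0.0040 between 12 h and 2 d, -0.04 between 12 h and 7 d and 0.08 between 2 d and 7 d. Replicates 3 and 4 did not enter, so these values cannot decide whether the numbers pair the samples. Depth is unknown, and the number of arrays limits each value.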
